A study of Mus musculus with 7 samples.

Results

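The genes described here are the 10 core genes of the circadian clock, *Bmal1*, *Clock*, *Npas2*, *Per1*, *Per2*, *Per3*, *Cry1*, *Cry2*, *Nr1d1* and *Nr1d2*. They were taken by symbol from a table of liver gene counts that holds 23347 genes, and all 10 were found and had enough counts to be tested, among 15179 genes tested. The set was selected on the difference in these counts between the study's mouse groups, which was known beforehand, so the group differences of these 10 genes are given as a description, without p-values, and support no statement about the clock. *Npas2* passed the filter on low counts through the control livers, whereas the other 9 genes had enough counts in both groups.

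Liver RNA was sequenced from 7 male mice on a C57BL/6 background, 1 library per mouse, all fed CDAHFD, a high-fat diet without choline and with free amino acids as its protein that brings on steatohepatitis, for 15 weeks. The 4 controls, labelled WT in the sample labels, were *B4galt1* flox/flox littermates, which carry *B4galt1* with flanking recombination sites and no Cre. The 3 mice labelled *B4galt1*-HKO (B4-HKO below) carried the same floxed gene and Cre driven by the albumin promoter, which is active in hepatocytes and leaves the gene in other liver cells. Mice were young adults, 6 to 8 weeks old, when the diet began and were kept in a light-dark cycle with food at all times. The hour at which each liver was taken is not given in the sources used here, and each mouse was read once.

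Total counts ranged from 37838654 to 39668509 in control livers and from 30608271 to 34586588 in livers labelled B4-HKO. Mitochondrially encoded transcripts took 3.88% to 8.00% of the counts in controls and 14.4% to 22.6% in the other group. *B4galt1* itself had 50.6 ± 2.01 CPM (counts scaled to library size with TMM normalization; SD, n = 4) in controls, and 28.4, 23.9 and 53.7 CPM in replicates 1 to 3 labelled B4-HKO. The last of these lay above every control, and the group difference did not pass the threshold (log2 fold change -0.52 ± 0.26, where the error of a fold change is its standard error here and below, with an adjusted p = 0.181 by the quasi-likelihood method of edgeR, corrected after Benjamini and Hochberg). Groups are therefore named by their labels. All 6 hepatocyte markers were abundant in every liver, with sums from 90550 to 131100 CPM in controls and from 99350 to 158800 CPM in livers labelled B4-HKO. Of 6 macrophage markers, 3 (*Adgre1*, *Cd68* and *Lyz2*) fell (50%, beside 15.8% of all genes called and 7.83% called lower), DESeq2 called 5, and the sum of the list ranged from 1008 to 2287 CPM in controls against 442 to 514 CPM. Among endothelial markers, 1 of 5 (*Kdr*) passed, lower (20%, beside 15.8% of all genes), and DESeq2 on all mice also called 1. Their sums were 64.9 to 259 CPM in controls against 85.2 to 106 CPM. In edgeR, 0 of 5 passed without control replicate 4 or without any 1 of the livers labelled B4-HKO. In each of these fits 1 had an unadjusted p under 0.05. DESeq2 was not fitted with a mouse left out. Among 6 hepatocyte, 6 stellate cell, 5 cholangiocyte and 5 lymphocyte markers 0 passed in edgeR, where 2, 0, 0 and 0 had an unadjusted p under 0.05, and DESeq2 called 2, 0, 0 and 0. No marker was at 0 in any liver, and the part of cell makeup in the results below was not tested. With mitochondrially encoded genes left out of the counts, 2418 genes were called in place of 2404, and the 10 clock genes had 5 calls as before, with log2 fold changes of 2.37 for *Bmal1*, 1.65 for *Per2*, 1.71 for *Cry1*, 0.90 for *Per1* and -1.57 for *Nr1d1*. In bulk liver, fewer cells of a type and less RNA per cell cannot be told apart.

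In almost every mammalian cell, BMAL1 pairs with CLOCK, or with its paralog NPAS2, and the pair switches on genes with an E-box in their regulatory DNA. Among these genes are *Per1*, *Per2*, *Per3*, *Cry1* and *Cry2*, whose proteins return to the nucleus and block the pair, and *Nr1d1* and *Nr1d2*, which encode the heme-binding repressors REV-ERBα and REV-ERBβ. REV-ERBs compete with ROR activators for another element, the RRE, in *Bmal1*, *Npas2*, *Clock*, *Cry1* and *Nfil3*, so these transcripts are known to run opposite to *Nr1d1* over the day. In mouse liver, transcripts of *Nr1d1* and *Dbp* are known to peak in the light phase, those of the Per genes around dusk, and those of *Bmal1*, *Npas2* and *Clock* late in the night.

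Promoter windows were read to see where these elements lie. RefSeq (GRCm38.p6) gave a window of 250 bases before to 50 bases after the most upstream start for 9 of the 10 genes, with none at hand for *Per2*. Both strands were searched for the E-box CACGTG, the related E-prime box CACGTT, the D-box TTANGTAA, which PAR bZIP factors such as DBP bind, the RRE core TAGGTCA and the cyclic AMP response element TGACGTCA; the motifs found did not overlap each other. An E-box stood in *Per1* and *Cry1*, an E-prime box in *Cry1*, *Cry2* and *Nr1d1* (each read on the other strand, as AACGTG), and a D-box, in 2 copies, in *Per3*, whereas no window held the RRE core or the cyclic AMP response element. Over all 27025 RefSeq gene windows of this length, 7.24% held the E-box, 4.76% the E-prime box, 2.34% the D-box, 2.60% the RRE core and 1.85% the cyclic AMP response element. A match is a match of letters only, and elements farther from the start are outside these windows. The 250 upstream bases of 4 genes are shown because each holds a motif and its gene comes up again below. Capitals mark the motifs, and each is written 5′ to 3′ on the gene's strand. *Per1* lies at chr11:69098699-69098948 (plus strand), *Per3* at chr4:151044666-151044915 (minus strand), *Cry1* at chr10:85185055-85185304 (minus strand) and *Nr1d1* at chr11:98775378-98775627 (minus strand) of GRCm38.p6.
Per1: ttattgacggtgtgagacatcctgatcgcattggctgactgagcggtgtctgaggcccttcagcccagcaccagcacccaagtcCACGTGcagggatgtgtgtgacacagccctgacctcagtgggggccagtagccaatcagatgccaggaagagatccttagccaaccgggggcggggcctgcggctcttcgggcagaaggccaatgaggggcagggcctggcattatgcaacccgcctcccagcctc
Per3: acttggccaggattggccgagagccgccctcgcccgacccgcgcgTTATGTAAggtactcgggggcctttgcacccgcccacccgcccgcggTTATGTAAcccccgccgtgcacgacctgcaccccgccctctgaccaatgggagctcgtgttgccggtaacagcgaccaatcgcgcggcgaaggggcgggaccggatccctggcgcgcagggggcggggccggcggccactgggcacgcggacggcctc
Cry1: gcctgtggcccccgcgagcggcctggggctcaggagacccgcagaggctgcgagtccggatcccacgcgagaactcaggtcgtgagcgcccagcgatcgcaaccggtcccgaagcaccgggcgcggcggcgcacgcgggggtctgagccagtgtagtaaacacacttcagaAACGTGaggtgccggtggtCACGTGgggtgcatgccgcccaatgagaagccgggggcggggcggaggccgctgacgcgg
Nr1d1: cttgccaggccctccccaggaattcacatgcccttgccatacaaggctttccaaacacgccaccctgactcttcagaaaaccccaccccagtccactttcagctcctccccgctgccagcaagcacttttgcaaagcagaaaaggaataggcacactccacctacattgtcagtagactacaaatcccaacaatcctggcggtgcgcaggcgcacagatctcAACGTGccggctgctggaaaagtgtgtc
The *Per1* E-box begins at position -166 from the start and the *Cry1* E-box at -60, with the *Cry1* E-prime box at -79. The D-boxes of *Per3* begin at -205 and -158, and the *Nr1d1* E-prime box at -28.

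Of the activators, *Bmal1* was low in controls and higher in every liver labelled B4-HKO. It had 2.78, 1.58, 1.76 and 1.3 CPM in control replicates 1 to 4 and 3.47, 6.79 and 18.8 CPM in replicates 1 to 3 labelled B4-HKO, from counts of 46 to 121 and 107 to 570. The groups did not overlap, but the 3 livers labelled B4-HKO were spread far more widely than the controls. Its log2 fold change was 2.38 (standard error 0.49), a 5.19-fold difference, and without replicate 3 labelled B4-HKO it was 1.45.

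*Clock*, which codes for the partner of BMAL1, had 19.7, 22.7, 30.6 and 22.2 CPM in controls and 30.2, 25.3 and 46.6 CPM in livers labelled B4-HKO. Control replicate 3 lay among the livers of the other group, so the groups overlapped, and the log2 fold change of 0.51 (standard error 0.24) was 0.21 without replicate 3 labelled B4-HKO. *Npas2* was close to the detection limit throughout. Its counts were 26, 39, 22 and 11 in controls and 0, 11 and 23 in livers labelled B4-HKO, that is 0.311 to 0.979 CPM and 0 to 0.757 CPM, where 0 counts in replicate 1 allow up to 0.0974 CPM (3 counts, counting error only). The fitted log2 fold change of *Npas2* was -0.73 (standard error 0.86), smaller than its own error, so no change was detected. It was -1.83 without replicate 3 labelled B4-HKO and -0.17 without replicate 1 labelled B4-HKO.

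The period genes were not all alike. *Per2*, which also answers to glucocorticoid and temperature cues, had 51.9, 28.6, 37.5 and 39.98 CPM in controls and 89.8, 154 and 128 CPM in livers labelled B4-HKO. All 3 of the latter were above all 4 controls, with a log2 fold change of 1.65 (standard error 0.24), or 3.14-fold. *Per1* was higher in the same livers at 78.7, 129 and 114 CPM, against 71.7, 54.7, 45.8 and 57.1 CPM in controls. The groups of *Per1* were separated by a narrow gap between control replicate 1 and replicate 1 labelled B4-HKO, and the log2 fold change was 0.90 (standard error 0.22). *Per3*, whose promoter carries the D-boxes shown above, had 47.5, 33.0, 16.7 and 40.2 CPM in controls and 32.7, 64.0 and 20.3 CPM in the others. Its groups overlapped, with replicate 2 labelled B4-HKO above every control and control replicate 3 below every other liver, and with a log2 fold change of 0.18 (standard error 0.39) that was -0.37 without replicate 2 labelled B4-HKO and 0.48 without replicate 3.

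The cryptochromes, which act with the PER proteins as repressors, differed from each other as well. *Cry1* had 4.90, 7.20, 13 and 5.54 CPM in controls and 15.9, 15.7 and 43.6 CPM in livers labelled B4-HKO. The groups did not overlap, although control replicate 3 came close to the others, and the log2 fold change of 1.71 (standard error 0.41) was 1.03 without replicate 3 labelled B4-HKO. *Cry2* had 35.9, 26.8, 24.7 and 33.7 CPM in controls and 17.6, 30.3 and 34.0 CPM in livers labelled B4-HKO. The 2 groups covered much the same range, and the log2 fold change was -0.15 (standard error 0.24). The log2 ratio of *Cry1* to *Cry2* counts, which is not corrected for length and is compared between livers only, was -2.87, -1.89, -0.93 and -2.61 in controls and -0.15, -0.95 and 0.36 in the others. Control replicate 3 lay just above replicate 2 labelled B4-HKO in this ratio, so the groups overlapped.

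Of the REV-ERB genes, *Nr1d1* was lower and *Nr1d2* was not clearly different. *Nr1d1* had 97.8, 57.7, 28.0 and 67.1 CPM in control replicates 1 to 4 and 21.4, 30.5 and 10.95 CPM in replicates 1 to 3 labelled B4-HKO. Control replicate 3 fell below replicate 2 labelled B4-HKO, so the groups overlapped by this 1 control. The log2 fold change was -1.58 (standard error 0.41), a 2.99-fold difference, and -1.28 without replicate 3 labelled B4-HKO. *Nr1d2* had 76.8, 118, 116 and 130 CPM in controls and 128, 96.3 and 62.1 CPM in the others, a log2 fold change of -0.20 (standard error 0.26), and its lowest values came from control replicate 1 and replicate 3 labelled B4-HKO. *Nr1d1* shares 263 of its 3077 exon bases with *Thra* on the opposite strand in GENCODE M21, and since strand in counting is not given in the sources used here, reads from this stretch cannot be told apart. *Thra*, a thyroid hormone receptor, was at 10.1 to 23.3 CPM over all livers with a log2 fold change of -0.13 ± 0.29 (edgeR adjusted p = 0.788) that ranged from -0.61 to 0.08 over the other fits, highest without replicate 3 labelled B4-HKO. *Bmal1* and *Cry2* share 33 and 295 exon bases with non-coding genes on the opposite strand.

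**Figure D1:**
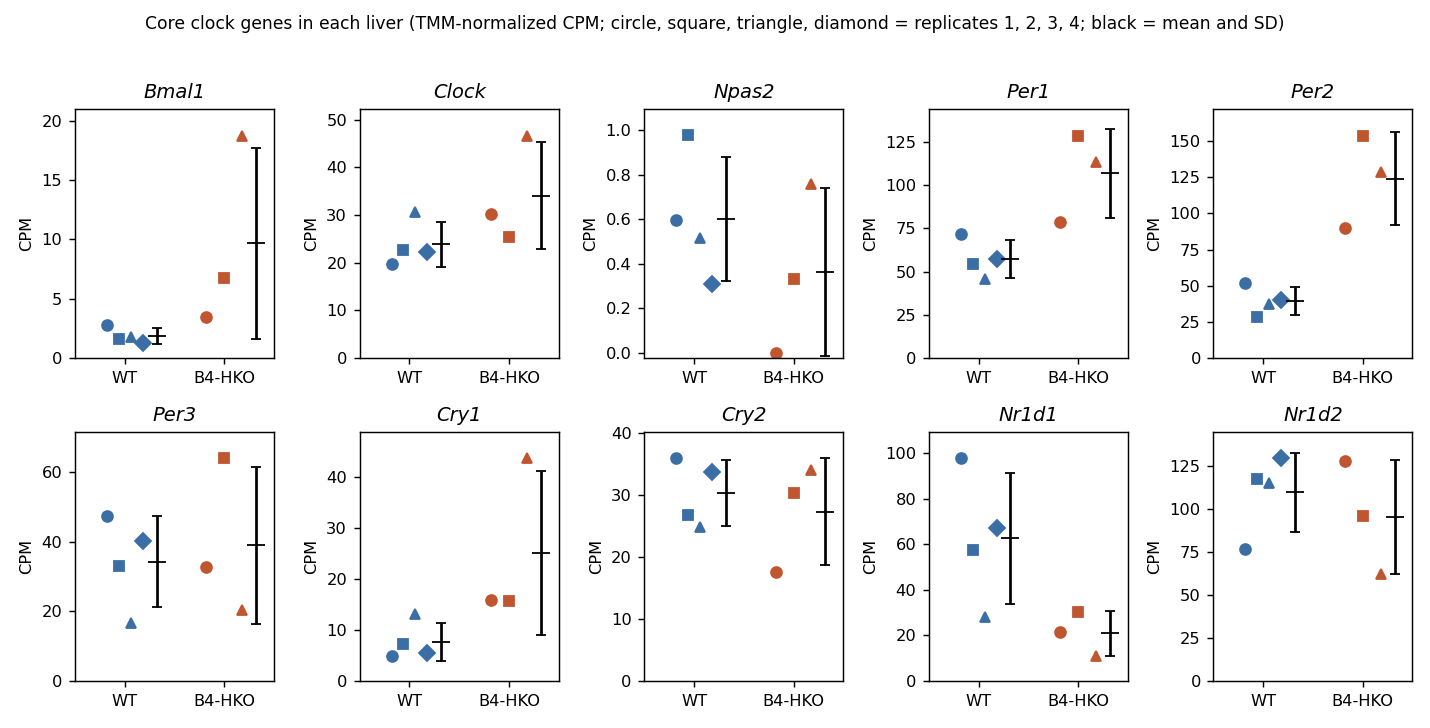
CPM (TMM-normalized, linear axes) of the 10 core clock genes in each liver, with control livers (WT) in blue, livers labelled B4-HKO in orange, a symbol for each replicate number, and the mean with SD in black. *Bmal1*, *Per1*, *Per2* and *Cry1* lay higher in all 3 livers labelled B4-HKO than in any control, *Nr1d1* overlapped by control replicate 3 alone, and the other 5 genes overlapped.

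By the study's thresholds (adjusted p under 0.05 over all genes tested and an absolute log2 fold change over 0.58), 5 of the 10 genes were called, *Bmal1*, *Per1*, *Per2* and *Cry1* higher and *Nr1d1* lower, beside 15.8% of all genes tested (8.00% higher and 7.83% lower). The groups did not overlap in 4 of the 10, beside 28.6% of all genes. The median log2 fold change of the 10 genes was 0.35 and the median size of change, sign aside, was 0.81, against 0.02 and 0.44 over all genes tested. Because the genes were proposed with this comparison known, nothing is read from these shares. Nearest to the threshold on the adjusted p, *Nr1d1* and *Per1* were the last inside and *Clock* the first outside, with log2 fold changes of -1.58, 0.90 and 0.51. Each of the 5 kept its direction in every fit that included it, 15 other fits for *Bmal1*, which was filtered out as low in 2 fits on FPKM, and 17 for the others. *Bmal1* and *Per2* kept the call in all 7 fits that left out a mouse, whereas *Per1*, *Cry1* and *Nr1d1* kept it in 3, 4 and 3 of them. Those 3 lost it without control replicate 2 and without control replicate 4, *Per1* also without control replicate 3 or replicate 2 labelled B4-HKO, *Cry1* without replicate 3 labelled B4-HKO, and *Nr1d1* without replicate 1 or 3 labelled B4-HKO. Over all the other fits, *Bmal1* was called in 14 of 15, *Per2* in 17 of 17, *Cry1* in 13, *Nr1d1* in 12 and *Per1* in 9. *Bmal1* was lowest, at 0.39, in the fit on log2(FPKM + 1) for all genes above 0.

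**Figure D2:**
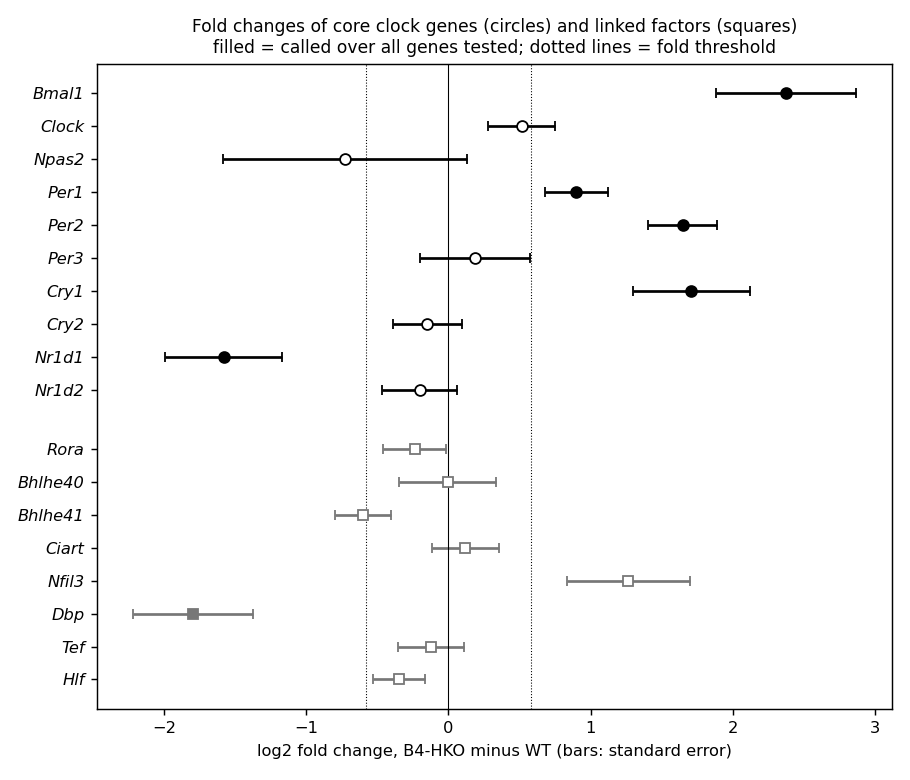
Log2 fold changes (livers labelled B4-HKO minus controls) with standard errors for the 10 core clock genes (circles) and 8 linked clock transcription factors (squares), filled where called over all genes tested, with dotted lines at the fold threshold of 0.58. *Bmal1*, *Cry1*, *Per2* and *Per1* stood to the right of the dotted line and *Nr1d1* and *Dbp* to the left, all filled, whereas *Nfil3*, *Npas2* and *Bhlhe41* lay beyond a line unfilled.

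The order of levels between genes was taken from the deposited FPKM, which divides by gene length. In controls the order was *Nr1d1* (23.8 ± 12.3 FPKM, SD, n = 4), *Nr1d2* (23.3 ± 3.52), *Cry2* (7.62 ± 1.62), *Per1* (6.99 ± 1.73), *Per2* (6.79 ± 2.11), *Per3* (5.25 ± 2.19), *Clock* (2.45 ± 0.55), *Cry1* (2.02 ± 1.04), *Npas2* (0.148 ± 0.0675) and *Bmal1* (0.102 ± 0.0443). Neighbours in this order overlapped in range except at the steps from *Nr1d2* to *Cry2* and from *Cry1* to *Npas2*, so the REV-ERB genes stood above the Per and Cry genes, and *Npas2* and *Bmal1* below all others. In livers labelled B4-HKO, *Per2* came first (19.7 ± 7.06 FPKM, SD, n = 3), followed by *Nr1d2* (18.9 ± 6.70), *Per1* (12.1 ± 3.999) and *Nr1d1* (7.47 ± 4.25), and *Cry1* (5.84 ± 3.31) and *Bmal1* (0.467 ± 0.354) had moved above *Per3* (5.71 ± 3.96) and *Npas2* (0.0802 ± 0.0782). All neighbours overlapped there except *Clock* against *Bmal1* and *Bmal1* against *Npas2*. The FPKM of *Bmal1* rests on a length of 19.3 kb implied by its counts, the longest of the 10, which lowers its FPKM against the others. GENCODE M21 gives it 7523 exon bases, so its place against *Npas2* in controls depends on the length used. Those of *Nr1d1* and *Per2* imply lengths of 2.77 and 6.11 kb.

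The spread between mice of the same group is computed without the group difference, although the 10 genes were selected on that difference. The SD of log2 CPM within groups was 0.75 for *Nr1d1*, 0.73 for *Per3*, 0.72 for *Cry1* and 0.85 for *Bmal1*, against a median of 0.35 over all genes tested. Each was larger than in most of the 1000 genes nearest to it in mean level, with 99.5%, 99.2%, 97.4% and 92.5% of those below it. For *Bmal1* the SD was 0.45 in controls and 1.22 in livers labelled B4-HKO. *Per1* (0.31), *Clock* (0.35), *Per2* (0.37), *Cry2* (0.38) and *Nr1d2* (0.42) were closer to the bulk, with 62.0%, 74.2%, 77.8%, 79.4% and 82.8% of their neighbours below. *Npas2* had the largest within-group SD of the 10, 1.36, on a few counts per liver. Among the linked factors, *Dbp* (0.78) and *Nfil3* (0.81) varied as much as *Nr1d1*, whereas *Hlf* (0.19) and *Bhlhe41* (0.16) hardly varied.

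Within groups several of the genes varied together. In controls, replicate 3 had the lowest *Nr1d1*, *Per3* and *Dbp* and the highest *Cry1* and *Clock*, and in livers labelled B4-HKO, replicate 3 again had the lowest *Nr1d1*, *Per3* and *Dbp* and the highest *Cry1* and *Clock*. Control replicate 3 also had the highest endothelial and macrophage marker sums of all livers, 259 and 2287 CPM, with *Lyve1* at 48.5 CPM against 2.74 to 5.001 CPM in the other controls, and their part in this pattern was not tested. Against its own group mean, *Nr1d1* was -1.03 on the log2 scale in control replicate 3 and -0.81 in replicate 3 labelled B4-HKO, while *Cry1* was 0.87 and 0.97. After group means were subtracted, Pearson's r over the 7 mice was 0.97 between *Nr1d1* and *Per3*, 0.94 between *Nr1d1* and *Dbp*, -0.95 between *Nr1d1* and *Cry1* and -0.96 between *Nr1d1* and *Clock*. Spearman's rho was 0.93, 0.86, -0.93 and -0.89 for these pairs. These points share libraries and depth, and 2.33% and 2.52% of all genes had an r over 0.9 and under -0.9 with *Nr1d1*. With both of those livers left out, r over the remaining 5 mice was 0.86, 0.66, -0.77 and -0.96 for the same pairs, and 0.57 in place of 0.96 for *Cry1* with *Clock*, so that the pairs with *Dbp* and *Cry1* rested in part on these 2 livers. The pairs named here and in the next paragraph were not set in advance, and others were weaker. Over the 7 mice, r of *Nr1d1* was 0.098 with *Nr1d2*, 0.19 with *Cry2*, 0.34 with *Per2* and -0.25 with *Npas2*.

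A second set of genes followed another order of mice. *Per1* varied with *Per2* (r = 0.82 over the 7 mice after group means were subtracted), with *Cry2* (0.89) and with *Ciart* (0.93), and without the same 2 livers these were 0.92, 0.94 and 0.91. Control replicate 1 was the highest control for each of these genes and replicate 1 labelled B4-HKO the lowest of its group. Spearman's rho over the 7 mice was 0.89, 0.89 and 1 for these pairs. An r over 0.9 with *Per1* was found for 3.09% of all genes, a cutoff that over the 7 mice *Ciart* passed and *Per2* and *Cry2* did not. *Bmal1* ran opposite to *Nr1d2* (r = -0.97, rho = -0.89, and r = -0.97 without the 2 livers), but not to *Nr1d1*, for which r was -0.29 over the 7 mice and 0.90 over the 5. An r under -0.9 with *Bmal1* was found for 0.488% of all genes and one over 0.9 for 1.11%.

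**Figure D3:**
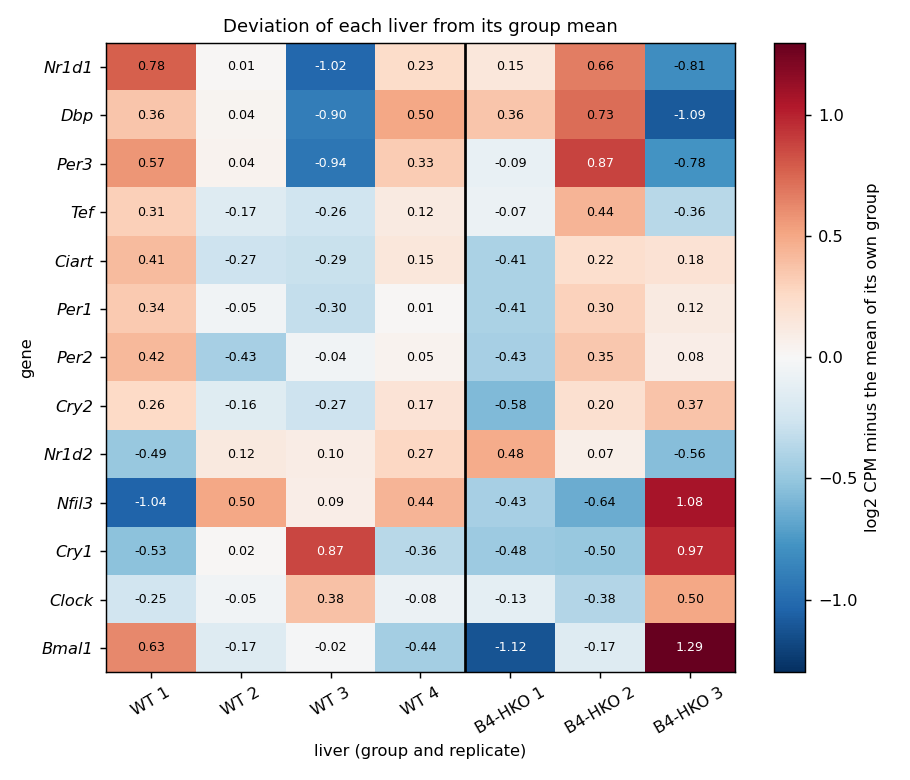
Deviation of each liver from the mean of its own group on the log2 CPM scale, for 13 clock genes (rows) and the 7 livers (columns), with red above and blue below the mean. *Npas2*, *Rora*, *Bhlhe40*, *Bhlhe41* and *Hlf* are not shown. Replicate 3 of both groups was blue for *Nr1d1*, *Dbp* and *Per3* and red for *Cry1* and *Clock*, and replicate 1 of the 2 groups had opposite signs for *Ciart*, *Per1*, *Per2* and *Cry2*.

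Set side by side without centring, livers with more *Nr1d1* had less *Cry1*, and the sole pair out of order was control replicate 3 and replicate 2 labelled B4-HKO. That control had 28.0 CPM of *Nr1d1* and 13 CPM of *Cry1*, and replicates 1 and 2 labelled B4-HKO had 21.4 and 30.5 CPM of *Nr1d1* and 15.9 and 15.7 CPM of *Cry1*. For *Per2* and *Bmal1* the same control stayed with its own group, at 37.5 and 1.76 CPM. The log2 ratio of *Bmal1* to *Nr1d1* was -5.13, -5.19, -3.995 and -5.69 in controls and -2.62, -2.17 and 0.78 in livers labelled B4-HKO, and that of *Per2* to *Nr1d1* was -0.91, -1.01, 0.42 and -0.75 against 2.07, 2.33 and 3.55. Control replicate 3 was the highest control in both ratios, and replicate 3 labelled B4-HKO, which had *B4galt1* at the level of controls, stood farthest from the controls.

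**Figure D4:**
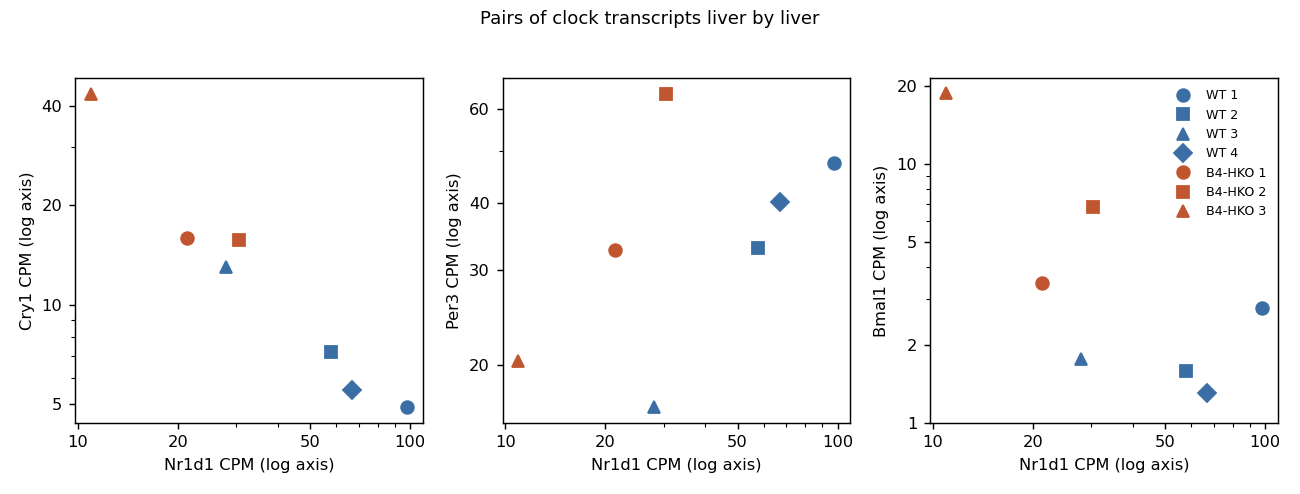
CPM of *Cry1*, *Per3* and *Bmal1* (vertical, log axes) against CPM of *Nr1d1* (horizontal, log axis), 1 point per liver, with controls in blue and livers labelled B4-HKO in orange. *Cry1* and *Nr1d1* lay along 1 falling band with control replicate 3 beside 2 livers labelled B4-HKO, whereas for *Per3* and *Bmal1* the 2 groups lay on separate bands.

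Genes linked to the loop were tested with the same fit over all genes. Of 9 linked clock transcription factors, 8 were tested and 1 passed the threshold (12.5%, beside 15.8% of all genes), with a median log2 fold change of -0.18. *Dbp*, a PAR bZIP activator that binds D-boxes, fell from 163, 130, 67.8 and 179 CPM in controls to 43.9, 56.7 and 16.0 CPM (log2 fold change -1.80 ± 0.42, edgeR adjusted p = 0.0181) and was called in 16 of 17 other fits. The groups did not overlap, and control replicate 3 was the control nearest to the other group.

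The remaining 7 tested factors did not pass in edgeR, whereas DESeq2 called 3 of the list in all, 1 higher and 2 lower. *Nfil3*, the repressor that competes with DBP at the D-box, had 4.60 to 13.5 CPM in controls and 13.5 to 44.8 CPM in livers labelled B4-HKO (log2 fold change 1.27 ± 0.43, edgeR adjusted p = 0.0664). Its highest control (13.48 CPM) and lowest liver labelled B4-HKO (13.54 CPM) all but met, and without replicate 3 labelled B4-HKO the log2 fold change was 0.50. *Nfil3* was called in 4 other fits, 1 of them with a mouse left out. *Bhlhe41*, an E-box repressor, had 12.65 to 16.8 against 8.82 to 10.45 CPM without overlap (log2 fold change -0.60, edgeR adjusted p = 0.0585), and was called in 1 other fit. The other PAR bZIP factors, *Tef* and *Hlf*, had log2 fold changes of -0.12 and -0.35 (adjusted p = 0.747 and 0.212 from the same test), *Rora* -0.24 (adjusted p = 0.482), *Ciart*, a repressor of the BMAL1 pair, 0.12 (adjusted p = 0.759) and *Bhlhe40* -0.01 (adjusted p = 0.991). Without replicate 3 labelled B4-HKO the value of *Tef* was 0.03 and that of *Rora* -0.41. *Bhlhe40* ranged from 41.0 to 136 CPM in the livers labelled B4-HKO, around the controls at 62.9 to 88.3 CPM, and its log2 fold change was -0.70 without replicate 3 labelled B4-HKO. *Rorb* had 1 count in all livers together and was not tested. In the RefSeq windows of these factors, found for 8 of the 9, the E-box stood in *Bhlhe41*, *Ciart* and *Tef*, the RRE core in *Nfil3* and the cyclic AMP response element in *Hlf*.

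The kinases and ubiquitin ligases that modify clock proteins and set their breakdown changed in part. Of 14 genes, 1 rose and 3 fell (28.6%, beside 15.8%), with a median log2 fold change of -0.21. *Csnk2b*, the regulatory subunit of casein kinase 2, fell to 3.75 ± 0.918 CPM (SD, n = 3) against 9.94 ± 2.43 CPM (SD, n = 4) in controls (edgeR adjusted p = 0.0103). *Prkaa2*, a catalytic subunit of AMPK, which targets CRY1, fell to 21.4 ± 6.11 CPM (SD, n = 3) against 45.0 ± 7.03 CPM (SD, n = 4) in controls (edgeR adjusted p = 0.0133). *Ddb1*, an adaptor of CUL4 ligases, fell to 89.8 ± 8.51 CPM (SD, n = 3) against 185 ± 35.0 CPM (SD, n = 4) in controls (edgeR adjusted p = 0.00978). These 3 genes kept the call whichever mouse was left out. *Csnk1e*, a kinase of the PER proteins, rose to 30.8 ± 9.12 CPM (SD, n = 3) against 18.5 ± 2.72 CPM (SD, n = 4) in controls (edgeR adjusted p = 0.0453), with overlap by control replicate 1, and kept the call in 2 of 7 such fits, without control replicate 1 or replicate 1 labelled B4-HKO. *Csnk1d*, its close relative, had a log2 fold change of -0.14 (edgeR adjusted p = 0.620).

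Of 15 coregulators and chromatin factors of the clock, 1 rose and 2 fell (20%, beside 15.8%), with a median log2 fold change of 0.23. *Sfpq*, an RNA- and DNA-binding protein found with PER complexes, rose to 263 ± 25.2 CPM (SD, n = 3) against 145 ± 7.10 CPM (SD, n = 4) in controls (edgeR adjusted p = 0.0107) and kept the call whichever mouse was left out. *Kat2b*, an acetyltransferase, fell to 38.2 ± 8.36 CPM (SD, n = 3) against 69.9 ± 15.2 CPM (SD, n = 4) in controls (edgeR adjusted p = 0.0266) and kept the call in 3, being lost without control replicate 2 or 3 or replicate 1 or 2 labelled B4-HKO. *Tbl1x*, part of the NCOR and HDAC3 complex through which REV-ERBs repress, fell to 23.3 ± 3.96 CPM (SD, n = 3) against 36.1 ± 5.66 CPM (SD, n = 4) in controls (edgeR adjusted p = 0.0497) and was called in none of them (0 of 7). *Ncor1* and *Hdac3* themselves had log2 fold changes of -0.03 and 0.24 (adjusted p = 0.938 and 0.392 from the same test).

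Among 11 genes known as outputs of the liver clock, 2 rose and 2 fell (36.4%, beside 15.8%), with a median log2 fold change of -0.34. *Noct*, which encodes the rhythmic phosphatase nocturnin, rose from 48.9, 59.1, 46.2 and 84.1 CPM in controls to 302, 147 and 446 CPM (log2 fold change 2.32 ± 0.34, edgeR adjusted p = 0.00360). *Wee1*, a cell cycle kinase and E-box target, fell to 7.48 ± 0.280 CPM (SD, n = 3) against 14.8 ± 2.77 CPM (SD, n = 4) in controls (edgeR adjusted p = 0.0131). *Gys2*, the liver glycogen synthase, fell to 289 ± 65.0 CPM (SD, n = 3) against 597 ± 126 CPM (SD, n = 4) in controls (edgeR adjusted p = 0.0184). *Noct* and *Wee1* kept the call whichever mouse was left out, and *Gys2* lost it without control replicate 2.

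The other call among the outputs rested on replicate 3 labelled B4-HKO, and it was also lost without any 1 of the controls. *Insig2*, an endoplasmic reticulum anchor of SREBP processing and a REV-ERB target, had 121 to 168 CPM in controls and 220, 223 and 627 CPM in livers labelled B4-HKO (log2 fold change 1.23, adjusted p = 0.0327 from edgeR), and without replicate 3 of that group it was 0.53 and not called. *Cyp7a1*, the rate-limiting enzyme of bile acid synthesis, and *Alas1*, that of heme synthesis, had log2 fold changes of -1.53 and -0.88 and did not pass (adjusted p = 0.0914 and 0.0585 from edgeR). Without replicate 3 labelled B4-HKO these were -2.52 and -1.26, and both genes were called. *Elovl3*, on low counts, had a log2 fold change of -0.96 over all mice (edgeR adjusted p = 0.343). In the fit without that replicate it was -2.45 and called as well. None of the 7 outputs with a RefSeq window held any of the 5 motifs.

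Of 7 genes that follow body temperature or glucocorticoid, cues that also set *Per1* and *Per2*, 1 rose and 1 fell (28.6%, beside 15.8%). *Tsc22d3*, a glucocorticoid-induced leucine zipper gene, rose from 78.9, 97.8, 233 and 83.8 CPM in controls to 287, 304 and 319 CPM (log2 fold change 1.296 ± 0.34, edgeR adjusted p = 0.0279) and lost the call without control replicate 2 or 4 or replicate 2 or 3 labelled B4-HKO. *Rbm3*, a cold-induced RNA-binding protein gene, fell to 64.7 ± 18.7 CPM (SD, n = 3) against 112 ± 13.2 CPM (SD, n = 4) in controls (edgeR adjusted p = 0.0342) and lost it without control replicate 2, 3 or 4 or replicate 1 or 2 labelled B4-HKO. *Fkbp5*, another glucocorticoid target, had 60.5, 51.5, 163 and 60.4 CPM in controls and 97.2, 132 and 192 CPM in the others (log2 fold change 0.75, edgeR adjusted p = 0.199), and for *Tsc22d3* and *Fkbp5* alike control replicate 3 was the control that stood apart. *Fkbp5* passed without that control and in no other fit, and its log2 fold change ranged from 0.44 (without replicate 3 labelled B4-HKO) to 1.29 over the fits. *Sgk1*, a further glucocorticoid-induced gene, had 45.6 to 94.4 CPM in controls and 46.9 to 89.2 CPM in the others (log2 fold change 0.01, edgeR adjusted p = 0.979). The remaining genes of the list, *Cirbp*, *Hspa1b* and *Hspa8*, had log2 fold changes of -0.85, 1.24 and 0.57 and did not pass (edgeR adjusted p = 0.108, 0.267 and 0.181). *Cirbp* was called in 2 other fits, *Hspa1b* in 1 and *Hspa8* in 0.

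**Figure D5:**
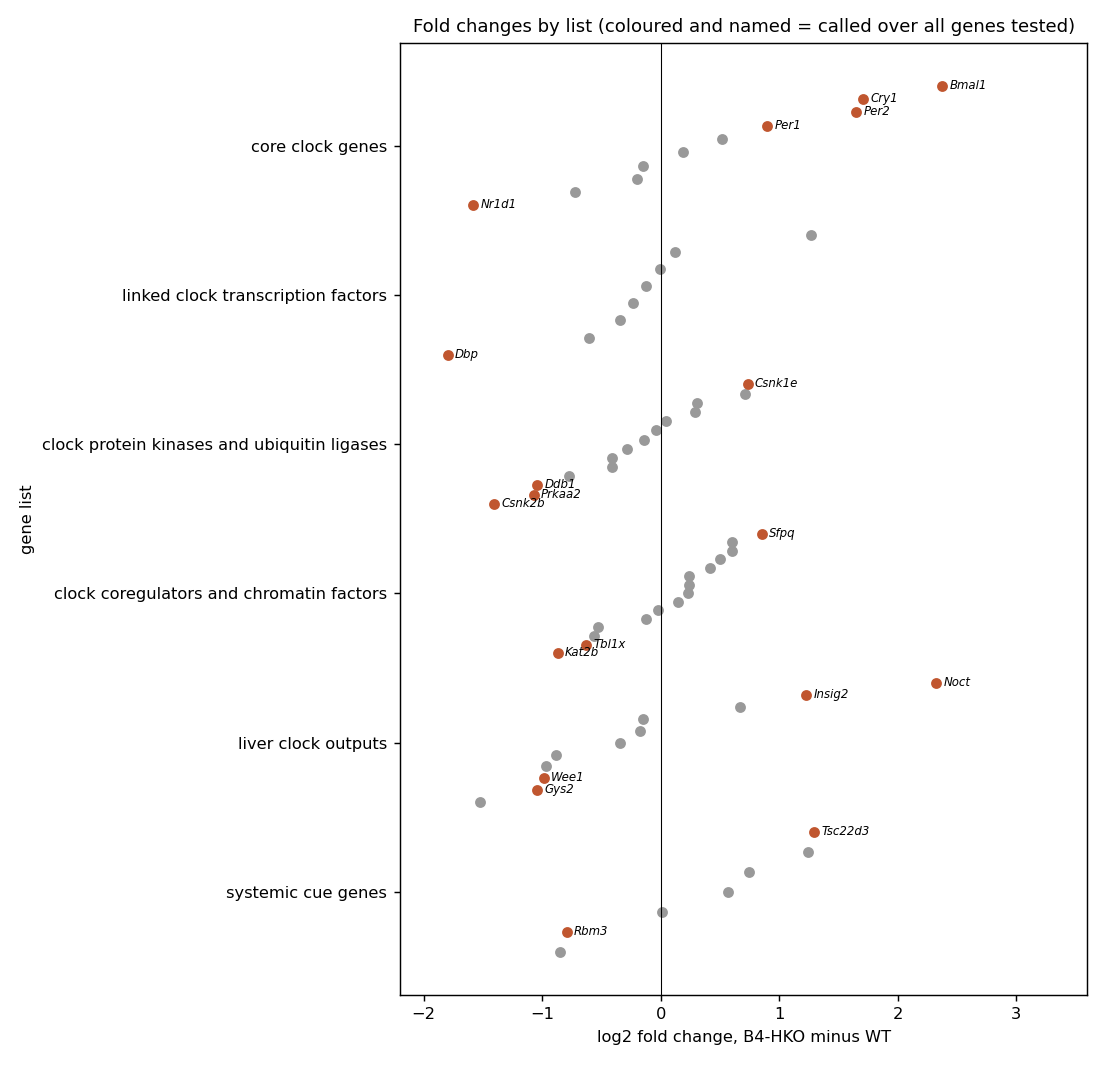
Log2 fold changes (livers labelled B4-HKO minus controls, horizontal axis) of the genes of 6 lists (vertical axis), 1 point per tested gene, coloured and named where called over all genes tested. Called genes stood on both sides of 0 in 5 of the 6 lists, whereas *Dbp* alone was called, below 0, among the linked transcription factors.

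Outside these lists, the genes whose within-group deviations over the 7 mice were most like those of *Bmal1*, among 7490 genes at or above the median level, were *Hyal1* (r = 0.99), *Map7d1* (0.99), *Atxn7* (0.98) and *Cyp27a1* (0.98), and those most like *Nr1d1* were *Dennd1a*, *Elp2*, *Fbf1* and *Wdr83* (r = 0.98 each). Of these, *Fbf1* passed the test between groups (log2 fold change 1.505, adjusted p = 0.0163 from edgeR) and the others did not. They are the highest of a search over 7490 genes with 7 mice. An r over 0.9 was found for 107 of those genes with *Bmal1* and for 101 with *Nr1d1*, so no link to the clock is read from them.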

How the data were processed

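Liver RNA of 7 mice was profiled by RNA-seq, 1 library per mouse, made with a VAHTS Universal V6 kit. The submitters' processing notes name fastp, HISAT2, HTSeq and GRCm39, with no versions or strand setting given. The authors deposited raw counts per gene and FPKM, which divide the count by gene length and library total. Deposited counts were tested with edgeR 4.0.16 in R 4.3.3 (TMM, filterByExpr with minimum count 10, quasi-likelihood F-test with group as the sole term, Benjamini-Hochberg adjustment over 15179 genes). Standard errors came from the F statistic, and CPM are TMM-normalized. DESeq2 1.42.0 on counts, and limma 3.58.1 on log2 of FPKM plus 1 or 0.1, a scale that understates changes of low genes, served as alternatives, with other normalizations, filters and each mouse left out. The fits were checked on simulated counts. All 21 pairs of libraries differed beyond sampling noise (chi-square per gene at least 60.25). That libraries stem from separate mice rests on the labels.

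The members and lists were chosen with earlier results of these data known. The text names all members, all linked transcription factors, called genes of the other lists (up to 5 each), *B4galt1*, *Thra* and the 4 genes most like *Bmal1* and *Nr1d1*. A few genes of the lists are not reported here, and list counts are without them. Uncalled genes of the other lists named beside them were chosen after their values were seen. The RefSeq windows are of another build (GRCm38.p6) than the counts.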

Additional observations from a re-analysis of the deposited data

How the results depend on the processing

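Over the alternatives, 2404 genes were called at first, 3280 with DESeq2, 2821 with genes of at least 1 count in any mouse, 1330 with limma on log2(FPKM + 1) for all genes above 0, 1267 with the replicate block and from 885 to 2396 with 1 mouse left out, lowest without control replicate 2. On FPKM, 24.5% of calls were higher with a pseudocount of 1 and 23.6% with 0.1, against 50.5%, and the median log2 fold change of all genes moved to -0.14 and -0.18. Of the 10 clock genes, 5 were called, 3 of the 8 tested with limma on log2(FPKM + 1), 3 of the same 8 on log2(FPKM + 0.1), where *Bmal1* and *Npas2* were filtered out as low, 1 of 10 on log2(FPKM + 1) for all genes above 0, and from 2 to 5 with 1 mouse left out (2 without control replicate 2 or 4, 3 without replicate 3 labelled B4-HKO). Calls among linked transcription factors went from 1 to 3 with DESeq2, to 2 with genes of at least 1 count in any mouse, to 2 with the replicate block, to 0 of 9 with limma for all genes above 0 (3 at an unadjusted p under 0.05), and from 1 to 2 with 1 mouse left out. Among kinases and ligases they ranged from 3 to 4 with 1 mouse left out. Among coregulators they went from 3 to 5 on log2(FPKM + 0.1), to 0 with the replicate block in edgeR (6 of 15 at an unadjusted p under 0.05) and from 1 to 3 with 1 mouse left out. DESeq2, which was fitted without the block only, called 4 of them. Liver outputs went from 4 to 2 with the replicate block and from 2 to 6 with 1 mouse left out. Systemic cue genes went from 2 to 1 with limma for all genes above 0 and to 1 with the replicate block. With 1 mouse left out they ranged from 0 to 4. The count was 0 in edgeR without control replicate 2, control replicate 4 or replicate 2 labelled B4-HKO. In those fits 3, 2 and 5 of the list had an unadjusted p under 0.05. DESeq2, which was fitted with all mice only, called 2 of the list. *B4galt1* passed with log2 fold changes of -0.67 and -0.73 on FPKM with pseudocounts of 1 and 0.1, did not pass on FPKM for all genes above 0 (-0.67, limma adjusted p = 0.108), and ranged from -0.96 to -0.30 with 1 mouse left out, passing without replicate 3 labelled B4-HKO. The cause of these differences was not tested. The fold changes of the 5 called clock genes kept their sign in every fit that included them.

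Equal replicate numbers come from different mice and are not said to pair them, and deviations of equal numbers correlated at -0.34, -0.03 and 0.08 across genes, so the replicate block has no basis in the design. *Per3*, *Cry2* and *Nr1d2* changed sign when 1 mouse was left out, to -0.37 and -0.05 (without replicate 2 labelled B4-HKO and control replicate 3), 0.07 (without replicate 1 labelled B4-HKO) and 0.02 (without replicate 3 labelled B4-HKO), and none of them was called in any fit. Counts were low for *Npas2*, at 0 to 39 a liver, and for *Bmal1* in controls, at 46 to 121, and the part of depth in their spread was not tested.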
